A study of Mus musculus with 6 samples.

Results

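The genes described here form the lymphotoxin and RANK signalling route of lymphoid organizer cells, and they were followed in E13.5 spleens of mouse embryos, 3 Tlx1 homozygous samples set against 3 Tlx1 heterozygous samples. They are 9 genes picked by symbol. Lta, Ltb and Tnfsf11 encode ligands, Ltbr, Tnfrsf1a and Tnfrsf11a encode receptors, and Map3k14, Relb and Nfkb2 encode the signalling kinase and a pair of NF-kB subunits. Each had 1 probe set with a single gene symbol, so no choice between probe sets arose, and all 9 stood among the 18710 genes tested. The Tlx1 protein is a homeodomain regulator, and mice that lack it are born without a spleen. The labels give the zygosity and not the allele, so homozygous is read here as carrying the altered allele on both chromosomes and heterozygous as carrying it on one. Every sample therefore carries the altered allele, and no wild-type spleen was used here. Nothing in the labels says whether a sample was 1 embryo or a pool, so p-values cover the spread among these arrays alone and that spread may be technical.

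In lymphoid organs, inducer cells of the blood lineage carry a trimer of lymphotoxin alpha and beta on their surface, and it engages the lymphotoxin beta receptor (Ltbr) on mesenchymal organizer cells. Soluble lymphotoxin alpha and TNF bind Tnfrsf1a instead. RANK ligand (Tnfsf11) binds RANK (Tnfrsf11a), and osteoprotegerin (Tnfrsf11b) is its soluble decoy. Ltbr and RANK stabilise the kinase NIK (Map3k14), which leads to processing of the Nfkb2 precursor into a subunit that pairs with Relb. Known outputs in organizer cells are the chemokines Cxcl13 and Ccl19 and the adhesion molecules Madcam1, Vcam1 and Icam1, and in the spleen the route is known for ordering the white pulp and the marginal zone.

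Values are intensities on a linear scale, and GCRMA is the method that the submitters' processing notes name, with array medians between 106 and 110.5. A fold change is the difference of mean log2(intensity + 1), homozygous minus heterozygous, given with its standard error (SE), and a gene is called where limma's adjusted p is below 0.05. Tlx1 was at 171, 209 and 199.9 in homozygous spleens, against 825, 706 and 719 in heterozygous spleens. It fell by 1.95 ± 0.09 (SE) on the log2 scale, 3.87-fold, with an adjusted p of 1.3e-05, and it is unknown whether its probe set covers the altered sequence. Tcf21 and Wt1 are transcription factor genes of the developing spleen and its covering mesothelium. They were picked with their values in view and were bright in either group. Because of that choice, their brightness is no check of what tissue was dissected. Tcf21 averaged 2863 ± 195 in homozygous and 3424 ± 74.4 in heterozygous spleens (SD, n = 3 each; log2 fold change −0.26, limma adjusted p = 0.0359). Wt1 averaged 1758 ± 97.7 in homozygous and 2208 ± 43.1 in heterozygous spleens (SD, n = 3 each; log2 fold change −0.33, limma adjusted p = 0.0133). The pancreas marker Cpa1 was also picked with its values in view. It averaged 1664 ± 103 in homozygous and 534 ± 290 in heterozygous spleens (SD, n = 3 each), a log2 fold change of 1.77 (limma adjusted p = 0.00793). The samples are whole organs, in which fewer cells of a type and less RNA per cell cannot be told apart. Among all genes, limma called 17.0% in either direction, 10.4% higher and 6.56% lower, and 38.3% had groups that did not overlap.

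Of the 9 genes, 2 were called higher in homozygous spleens (Tnfsf11 and Map3k14) and 1 lower (Ltbr), against 17.0% called among all genes. The groups did not overlap for 4 genes, those 3 and Lta, against 38.3% of all genes. The 3 called changes were small, between 1.21-fold and 1.24-fold, and the median fold change of the 9 was 0.02 on the log2 scale, against 0.02 over all genes tested. Among all genes, 15.1% had a larger change in size than Tnfsf11, 17.4% a larger one than Ltbr and 18.0% a larger one than Map3k14.

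**Figure D1:**
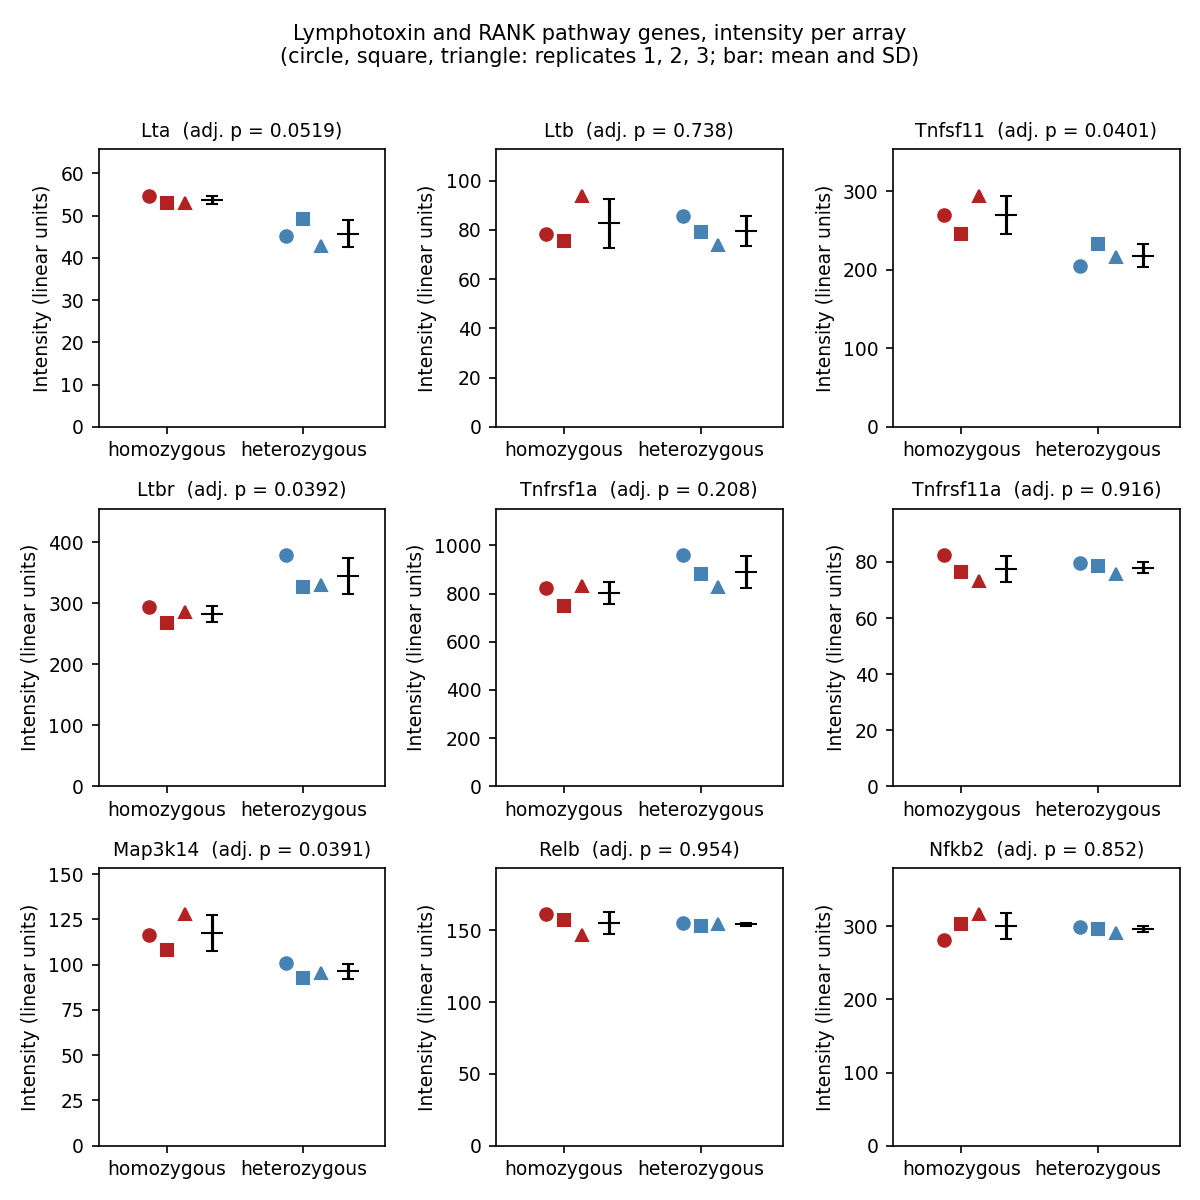
Intensity of the 9 genes on each array, linear axes that start at 0, homozygous spleens in dark red at the left and heterozygous spleens in blue at the right of each panel. Circle, square and triangle stand for replicates 1, 2 and 3, and the bar is the mean with its SD (n = 3). The groups are apart for Lta, Tnfsf11, Ltbr and Map3k14 and overlap for the other genes.

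Among the ligands, Tnfsf11 rose. It encodes RANK ligand, which lymphoid organizer cells and bone-forming cells display. Its intensity was 269.7, 246 and 295 in homozygous spleens, against 204, 233 and 217 in heterozygous spleens, and the lowest homozygous array stood above the highest heterozygous one. The means were 270.3 ± 24.2 in homozygous and 218 ± 14.5 in heterozygous spleens (SD, n = 3 each), a log2 fold change of 0.31 ± 0.08 (SE; limma adjusted p = 0.0401). The call held under quantile normalization (0.37) and cyclic loess (0.33). It was lost without homozygous replicate 1 (0.31, adjusted p = 0.111) or 3 (0.24, 0.104), without heterozygous replicate 1 (0.26, 0.122), 2 (0.35, 0.0585) or 3 (0.30, 0.0819), with the replicate number as a block (adjusted p = 0.0522) and with the level of Y-linked genes as a covariate (0.23, 0.228).

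The lymphotoxin ligands were dimmer and neither was called. Lta, lymphotoxin alpha, was at 54.7, 53.1 and 53.1 in homozygous spleens, against 45.1, 49.2 and 42.9 in heterozygous spleens. Its groups were apart, with means of 53.6 ± 0.96 in homozygous and 45.7 ± 3.2 in heterozygous spleens (SD, n = 3 each), a log2 fold change of 0.23 ± 0.07 (SE) and a limma adjusted p of 0.0519, just outside the threshold. It passed with array weights (adjusted p = 0.0408), and after cyclic loess its fold change was 0.11 (adjusted p = 0.379). Ltb, the membrane-anchoring partner in the trimer, was at 78.5, 75.5 and 94.0 in homozygous spleens, against 85.8, 79.0 and 73.7 in heterozygous spleens. These groups overlapped, with a log2 fold change of 0.05 ± 0.10 (SE; limma adjusted p = 0.738) and a 95% interval of −0.17 to 0.27. Tnf, which lies between Lta and Ltb on chromosome 17 in the RefSeq gene order and encodes the shared relative TNF, averaged 78.7 ± 7.28 in homozygous and 67.9 ± 4.9 in heterozygous spleens (SD, n = 3 each; log2 fold change 0.21, limma adjusted p = 0.129). Its groups did not overlap.

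Among the receptors, Ltbr fell. Its intensity was 294, 268 and 285 in homozygous spleens, against 379, 326 and 330.3 in heterozygous spleens, with all homozygous arrays below all heterozygous ones. The means were 282 ± 13.4 in homozygous and 345 ± 29.5 in heterozygous spleens (SD, n = 3 each), a log2 fold change of −0.29 ± 0.08 (SE), 1.22-fold lower, with a limma adjusted p of 0.0392. Heterozygous replicate 1 was the highest array of all, and without it the fold change was −0.22 (adjusted p = 0.117). The call was lost in each of the other 5 refits without 1 array too, without heterozygous replicate 2 (−0.32, adjusted p = 0.0651) or 3 (−0.31, 0.0557) and without homozygous replicate 1 (−0.32, 0.0803), 2 (−0.25, 0.08) or 3 (−0.29, 0.0838). Quantile normalization (−0.21, adjusted p = 0.119), cyclic loess (−0.24, 0.0772) and the Y-linked covariate (−0.24, 0.198) also ended it.

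The other receptors were not called. Tnfrsf1a, the receptor for TNF and soluble lymphotoxin alpha, was at 825, 749 and 832 in homozygous spleens, against 960.2, 883 and 827 in heterozygous spleens. Only heterozygous replicate 3 fell within the homozygous range, and the log2 fold change was −0.15 ± 0.08 (SE; limma adjusted p = 0.208; 95% interval −0.33 to 0.03). Tnfrsf11a, which encodes RANK, was at 82.5, 76.3 and 73.4 in homozygous spleens, against 79.5, 78.7 and 75.7 in heterozygous spleens. All heterozygous values lay inside the homozygous range, and the log2 fold change was −0.01 ± 0.07 (SE; limma adjusted p = 0.916; 95% interval −0.16 to 0.14). Scnn1a, a sodium channel subunit gene that separates Ltbr from Tnfrsf1a on chromosome 6 in the RefSeq gene order, averaged 70.1 ± 1.75 in homozygous and 83.3 ± 4.71 in heterozygous spleens (SD, n = 3 each), a log2 fold change of −0.24 (limma adjusted p = 0.0368). That call was lost in 5 of 6 refits without 1 array, all but that without heterozygous replicate 3 (−0.28 to −0.20 over the 6).

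Of the signalling genes, Map3k14 rose and the NF-kB subunit genes were not called. Map3k14 encodes NIK, the kinase that both receptors act through. It was at 116, 108 and 128 in homozygous spleens, against 101, 92.9 and 95.4 in heterozygous spleens, and the groups were apart. The means were 117 ± 9.83 in homozygous and 96.4 ± 4.05 in heterozygous spleens (SD, n = 3 each), a log2 fold change of 0.28 ± 0.08 (SE; limma adjusted p = 0.0391). The call was lost after quantile normalization (0.26, adjusted p = 0.0591), median centring (0.26, 0.0532), cyclic loess (0.22, 0.0866) and with the Y-linked covariate (0.31, 0.116). Without homozygous replicate 2 it held (0.34, adjusted p = 0.024), and it was lost without homozygous replicate 1 (0.29, 0.104) or 3 (0.22, 0.0924) and without heterozygous replicate 1 (0.31, 0.0665), 2 (0.25, 0.123) or 3 (0.27, 0.0839).

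Relb, the subunit that the alternative NF-kB route brings into the nucleus, was at 161, 158 and 147 in homozygous spleens, against 155, 153 and 155 in heterozygous spleens. Its log2 fold change was 0.01 ± 0.06 (SE; limma adjusted p = 0.954), with a 95% interval of −0.14 to 0.15. Nfkb2, the precursor that NIK causes to be processed, was at 282, 303 and 316 in homozygous spleens, against 299, 297 and 291 in heterozygous spleens. Its log2 fold change was 0.02 ± 0.07 (SE; limma adjusted p = 0.852), with a 95% interval of −0.13 to 0.17. For both genes the heterozygous values lay inside the homozygous range. An array reads messenger RNA and not precursor processing, which was not measured. In the RefSeq gene order Nfkb2 lies on chromosome 19, as Tlx1 does, with 17 protein-coding genes between them.

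**Figure D2:**
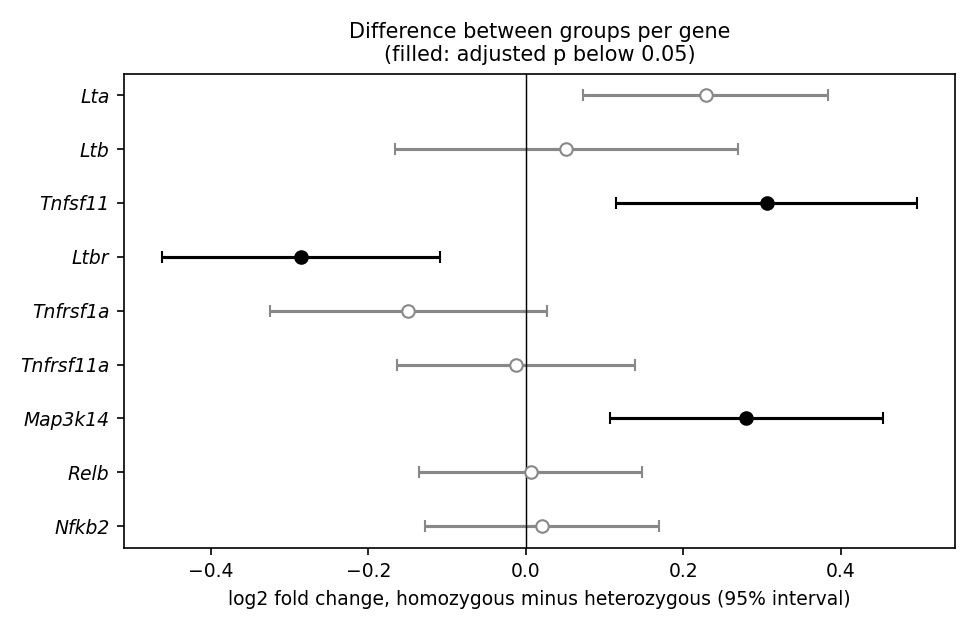
Log2 fold change of each gene, homozygous minus heterozygous, with its 95% interval from limma; filled points are called at an adjusted p below 0.05. Tnfsf11 and Map3k14 lie above 0 and Ltbr below it, the interval of Lta also stays above 0, and those of the other 5 genes cross 0.

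The genes did not share 1 pattern over the arrays of a group. Homozygous replicate 3 was the highest homozygous array for 5 of the 9 genes and replicate 1 for 4, while replicate 2 was the lowest for 5 and shared the lowest value of Lta with replicate 3. Among heterozygous arrays replicate 1 was the highest for 7 of the 9 and replicate 3 the lowest for 5. The spread within a group was widest for Ltb in homozygous spleens, with an SD of 12.0% of the mean, and narrowest for Relb in heterozygous spleens, at 0.621%. The 4 genes with a profile nearest to that of Tnfsf11 over the 6 arrays, each centred on its own mean, were Hcrtr1 (distance 0.0764 on the log2 scale), Treml4 (0.0777), Theg (0.079) and Zfp385c (0.0795). Such a distance takes in both the change between groups and the spread within them, so a change close to that of Tnfsf11 is part of what makes it small. The log2 fold changes of these 4 genes were 0.26, 0.30, 0.28 and 0.31.

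The fold change also varied with signal level over all genes. With genes ranked by mean log2 intensity and split into 5 groups of 3742, the group from 49.1 to 112 intensity units had a median log2 fold change of 0.16, with 20.2% of its genes called higher and 3.69% lower. Lta, Ltb, Tnfrsf11a and Map3k14 lie in it. The group from 273 to 606, which holds Ltbr and Nfkb2, had a median of −0.06, and the group from 112 to 273, with Tnfsf11 and Relb, a median of −0.01. After cyclic loess between arrays, the median of the group with Lta, Ltb, Tnfrsf11a and Map3k14 was 0.06, and Tnfsf11 was the 1 gene of the 9 still called. The part of this trend in the values of Map3k14 and Lta was not tested beyond that refit.

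**Figure D3:**
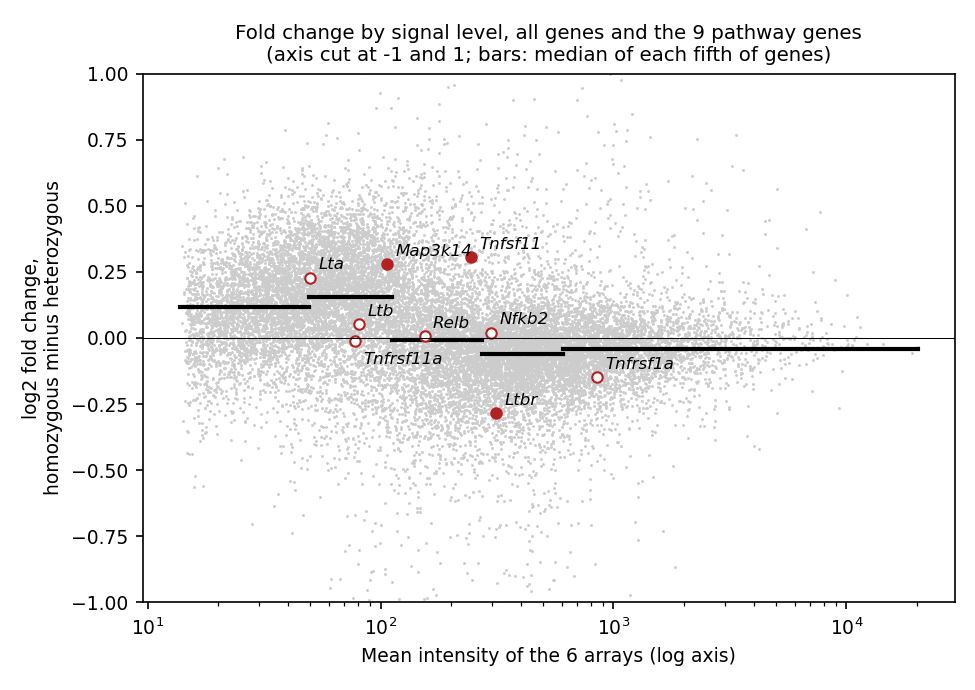
Log2 fold change, homozygous minus heterozygous, against the mean intensity of the 6 arrays on a log axis, grey points for all genes tested (the vertical axis stops at −1 and 1) and red circles for the 9 pathway genes, filled where called. Black bars mark the median of each of 5 equal groups of genes by level, 0.12 and 0.16 in the 2 dimmest and −0.06 in the group that holds Ltbr.

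The promoter sequences of the 3 called genes, Ltbr, Tnfsf11 and Map3k14, are shown to let their letters be read beside those of Nfkb2 and Madcam1, which carry the letters of an NF-kB site. They are RefSeq sequences on GRCm38.p6, from 250 bases before to 50 bases after the gene's start, in the direction of the gene, and 8 of the 9 genes had an entry, all but Relb. The motif searched was GGG, any 2 bases, TT, any base and CC, on both strands with overlapping matches counted, and matches are in capitals. It was found in 4.79% of the 32851 promoters of that length.
Ltbr, chr6:125313836-125314135, minus strand: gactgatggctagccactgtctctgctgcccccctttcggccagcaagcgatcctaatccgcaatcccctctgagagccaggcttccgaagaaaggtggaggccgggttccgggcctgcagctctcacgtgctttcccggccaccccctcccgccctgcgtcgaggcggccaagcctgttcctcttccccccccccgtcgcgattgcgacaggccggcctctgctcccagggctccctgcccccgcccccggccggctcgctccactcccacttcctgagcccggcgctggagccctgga
Tnfsf11, chr14:78307994-78308293, minus strand: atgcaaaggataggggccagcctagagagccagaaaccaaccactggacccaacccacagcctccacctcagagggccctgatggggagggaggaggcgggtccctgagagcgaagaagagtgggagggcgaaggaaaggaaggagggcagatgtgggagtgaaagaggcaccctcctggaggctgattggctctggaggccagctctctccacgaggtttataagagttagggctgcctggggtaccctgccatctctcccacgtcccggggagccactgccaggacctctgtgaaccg
Map3k14, chr11:103267352-103267651, minus strand: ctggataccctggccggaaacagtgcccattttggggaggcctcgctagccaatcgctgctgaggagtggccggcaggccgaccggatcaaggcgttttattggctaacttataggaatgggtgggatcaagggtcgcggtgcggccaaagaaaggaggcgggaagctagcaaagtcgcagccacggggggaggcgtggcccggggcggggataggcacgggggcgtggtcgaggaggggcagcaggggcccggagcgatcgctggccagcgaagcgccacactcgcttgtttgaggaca
Nfkb2, chr19:46304487-46304786, plus strand: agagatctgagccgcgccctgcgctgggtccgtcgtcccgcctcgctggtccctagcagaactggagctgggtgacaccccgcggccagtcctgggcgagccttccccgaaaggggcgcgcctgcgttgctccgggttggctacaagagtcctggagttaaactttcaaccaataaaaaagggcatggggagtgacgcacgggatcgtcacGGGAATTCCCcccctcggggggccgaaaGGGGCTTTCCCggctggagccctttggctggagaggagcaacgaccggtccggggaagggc
Madcam1, chr10:79664309-79664608, plus strand: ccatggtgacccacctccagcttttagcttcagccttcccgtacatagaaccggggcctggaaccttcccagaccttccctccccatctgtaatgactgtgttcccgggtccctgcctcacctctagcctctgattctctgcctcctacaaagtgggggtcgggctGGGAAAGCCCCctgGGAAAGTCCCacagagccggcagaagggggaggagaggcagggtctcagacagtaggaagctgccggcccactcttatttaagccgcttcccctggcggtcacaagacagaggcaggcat
Ltbr, Tnfsf11 and Map3k14 hold no match in these windows, nor do Lta, Tnfrsf1a and Tnfrsf11a. Nfkb2 holds matches in all 3 of its promoters. The one shown holds 3, starting 39, 11 and 10 bases before the start, the last pair overlapping. The windows of the other Nfkb2 promoters overlap each other and hold the same single match. Ltb holds 1, 87 bases before its start. Madcam1 holds 3, starting 84, 83 and 70 bases before its start, the first pair overlapping. A match is a description of letters and no measure of binding, and the motif was chosen after the values were seen.

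Organizer products moved in both directions. Of 11 tested, 3 rose (Vcam1, Cxcl12 and Pdpn) and 1 fell (Madcam1), with a median log2 fold change of 0.14. Madcam1, a vascular adhesion molecule for lymphocyte integrins, was at 300.2, 292 and 392 in homozygous spleens, against 619, 579 and 511 in heterozygous spleens, and the groups were apart (log2 fold change −0.80 ± 0.12, SE; limma adjusted p = 0.00466). Vcam1, which binds integrins that contain the Itga4 chain, averaged 441 ± 55.3 in homozygous and 266 ± 15.5 in heterozygous spleens (SD, n = 3 each; log2 fold change 0.72 ± 0.10, SE; limma adjusted p = 0.00285). Both kept their calls in every refit without 1 array and under every other setting tried. Cxcl12, a chemokine of stromal cells, had a log2 fold change of 0.51 (limma adjusted p = 0.00605) and kept its call likewise. Pdpn, a glycoprotein of stromal and mesothelial cells, rose by 0.23 (limma adjusted p = 0.0491) and kept its call in 1 of 6 refits, that without homozygous replicate 2 (0.19 to 0.27 over the 6). Cxcl13, the B cell chemokine best known as an output of Ltbr and picked with its values in view, was at 399.9, 385 and 428 in homozygous spleens, against 405, 497 and 411 in heterozygous spleens. Its groups overlapped (log2 fold change −0.11 ± 0.09, SE; limma adjusted p = 0.423).

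Of 21 other TNF family receptors tested 4 rose and 3 fell, with a median log2 fold change of 0.12. Of 12 other ligands 1 rose, with a median of 0.04. Among all genes 17.0% were called, and the difference between the counts of receptors and ligands was not tested. Edar, the ectodysplasin receptor of skin appendages, fell furthest, at 102, 95.2 and 107 in homozygous spleens, against 258, 234 and 257 in heterozygous spleens (log2 fold change −1.29 ± 0.07, SE; limma adjusted p = 3.03e-05). Tnfrsf12a, the receptor for TWEAK, rose by 0.41 (limma adjusted p = 0.00597), and the calls of Edar and Tnfrsf12a held in all refits. Tnfrsf11b, the decoy for RANK ligand and picked with its values in view, was at 89.1, 84.1 and 77.1 in homozygous spleens, against 100.4, 108 and 93.8 in heterozygous spleens. Its groups were apart in the opposite direction to those of Tnfsf11 (log2 fold change −0.27 ± 0.08, SE; limma adjusted p = 0.0499), and the call held in 1 of 6 refits without 1 array, that without heterozygous replicate 3 (−0.32 to −0.21 over the 6).

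The other called receptors and the ligand each lost the call in some refits without 1 array. Ngfr, a neurotrophin receptor, fell by 0.37 (limma adjusted p = 0.0232) and lost its call without homozygous replicate 1 or 3 or heterozygous replicate 1 or 2 (−0.44 to −0.29 over all 6 refits). Tnfrsf13c, the BAFF receptor of B cells, rose by 0.33 (adjusted p = 0.0156) and lost its call without homozygous replicate 1 or heterozygous replicate 2 (0.28 to 0.36). Tnfrsf17, a BAFF and APRIL receptor of plasma cells, was dim, at 44.7 ± 6.33 in homozygous and 35.3 ± 0.226 in heterozygous spleens (SD, n = 3 each). It rose by 0.32 (limma adjusted p = 0.0494), and genes in the dimmest group by level had a median of 0.12. Of the 6 refits without 1 array, only that without homozygous replicate 2 kept the call (0.21 to 0.40). The call was also lost without the filter, after median centring, after cyclic loess (0.22, limma adjusted p = 0.148) and with the other variance model. Tnfrsf13b, the TACI receptor of B cells, picked with its values in view, rose by 0.27 (limma adjusted p = 0.0344). It lost its call without homozygous replicate 1 or 3 or heterozygous replicate 1 or 2 (0.23 to 0.33 over the 6) and after cyclic loess (0.19, adjusted p = 0.0814). Tnfsf18, the GITR ligand, was dim, at 24.6 ± 2.0 in homozygous and 18.9 ± 1.4 in heterozygous spleens (SD, n = 3 each). It had a log2 fold change of 0.36 (limma adjusted p = 0.0207) and lost its call without homozygous replicate 3 or heterozygous replicate 2 or 3 (0.31 to 0.42). Tnfsf18 also lies in the dimmest group by level, and Tnfrsf13b in the group from 49.1 to 112 intensity units, whose median was 0.16.

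Of 19 other adaptors and kinases 2 fell, Traf5 and Tradd, with 17.0% called among all genes. Traf3, Chuk and Ripk1 were also listed but had no probe set with a single gene symbol, so they were not tested. The median log2 fold change of the 19 was −0.10, with 13 estimates below 0. Traf5, an adaptor that binds several TNF receptors, Ltbr among them, was at 129, 132 and 128 in homozygous spleens, against 194, 186 and 182 in heterozygous spleens. It fell by 0.53 ± 0.06 (SE; limma adjusted p = 0.00128) and kept its call under every setting. Tradd, the adaptor of Tnfrsf1a, fell by 0.31 (limma adjusted p = 0.0192) and lost its call without homozygous replicate 1 or heterozygous replicate 1 or 2 (−0.37 to −0.27 over the 6 refits). Among 8 other genes listed with the NF-kB subunits and inhibitors 2 fell, Nfkbiz and Nfkbib. Nfkb1 was also listed but had no probe set with a single gene symbol. Nfkbiz fell by 0.28 (adjusted p = 0.028) and lost its call without either homozygous replicate 1 or 2 or heterozygous replicate 1 or 2 (−0.33 to −0.25), and Nfkbib fell by 0.26 (adjusted p = 0.0224) and lost it without homozygous replicate 1 or heterozygous replicate 1 or 2 (−0.28 to −0.23).

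**Figure D4:**
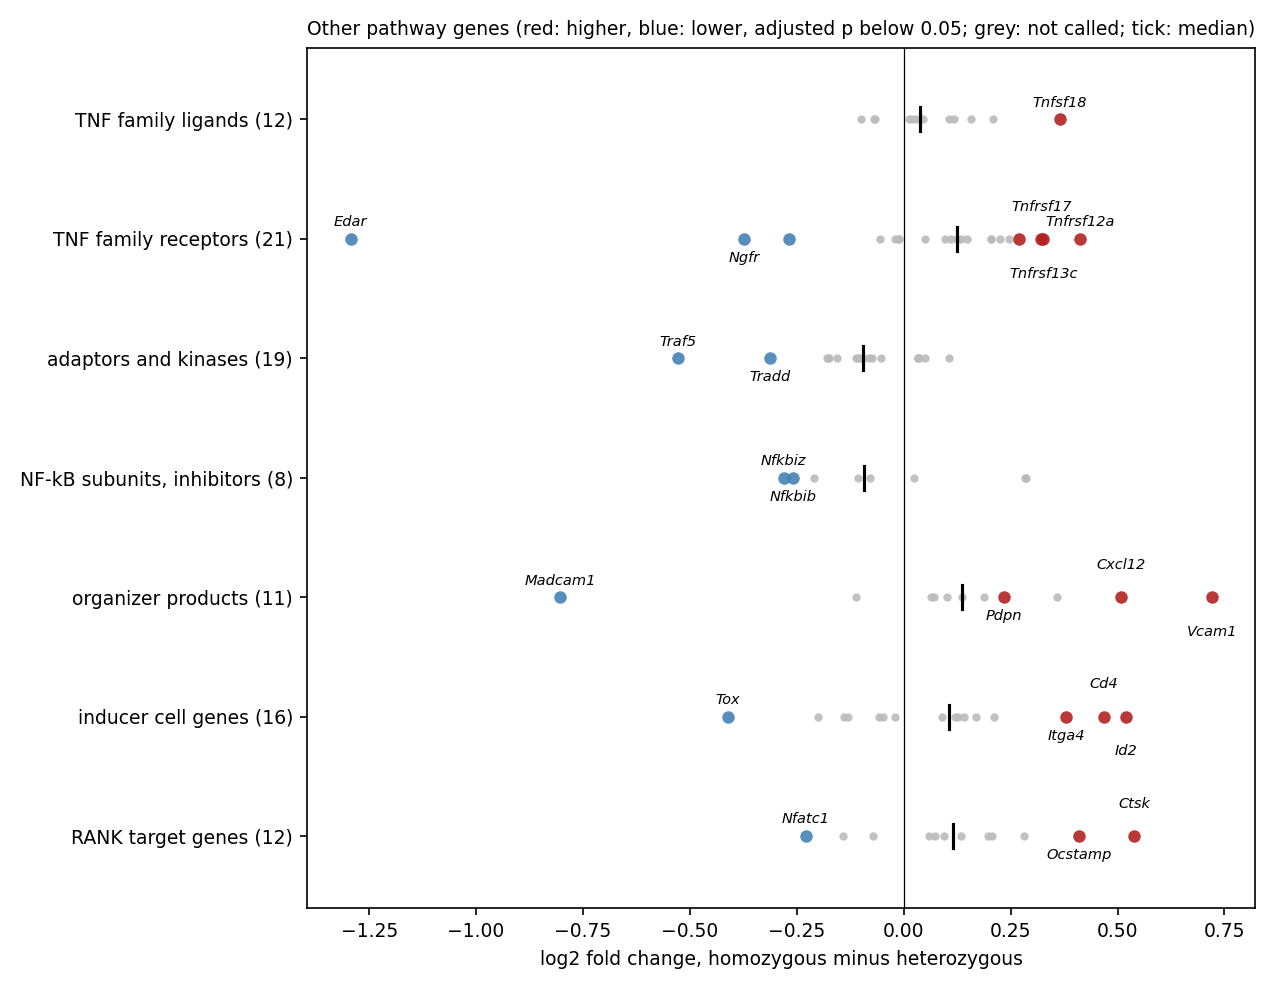
Log2 fold change, homozygous minus heterozygous, of the 99 other pathway genes tested, 1 row per list with the number tested in brackets. Red points were called higher, blue lower and grey ones not at all, the black tick is the list's median, and Edar, Madcam1 and Traf5 lie furthest to the left and Vcam1 furthest to the right.

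Genes of the inducer cells that carry lymphotoxin moved in both directions. Of 16 tested, 3 rose and 1 fell, with a median of 0.11. Id2, a bHLH inhibitor that inducer cells need and many mesenchymal cells also express, averaged 2855 ± 83.8 in homozygous and 1992 ± 85.6 in heterozygous spleens (SD, n = 3 each; log2 fold change 0.52, limma adjusted p = 0.00192). Itga4, the integrin chain that pairs with Itgb7 to bind Madcam1, rose by 0.38 (limma adjusted p = 0.0114) and lost its call without homozygous replicate 1 (0.32). Tox, a nuclear factor needed for inducer cells and T cells, fell by 0.41 (limma adjusted p = 0.00428). Cd4, a surface protein of T cells and some inducer cells, rose by 0.47 (limma adjusted p = 0.0288) but was dim, at 35.3 ± 3.08 in homozygous and 25.4 ± 4.23 in heterozygous spleens (SD, n = 3 each). It lost its call without homozygous replicate 1 or 3 or heterozygous replicate 1 or 2 (0.37 to 0.59 over the 6 refits). Genes in the dimmest group by level, which holds Cd4, had a median of 0.12. The receptors Il7r, at 26.4 ± 4.15 in homozygous and 28.8 ± 1.33 in heterozygous spleens, and Cxcr5, at 22.9 ± 6.14 in homozygous and 22.8 ± 3.29 in heterozygous spleens (SD, n = 3 each), mark lymphoid cells and stood close to the filter floor of 15 intensity units. Both were picked with their values in view.

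Genes that RANK signalling drives in osteoclasts were also mixed. Of 12 tested, 2 rose and 1 fell, with a median of 0.11. Ctsk, a matrix protease of osteoclasts and fibroblasts, rose by 0.54 (limma adjusted p = 0.011) and kept its call in all 6 refits without 1 array but not with the Y-linked covariate (0.49, adjusted p = 0.0642). Ocstamp, an osteoclast fusion factor, rose by 0.41 (limma adjusted p = 0.0259) and lost its call without homozygous replicate 1 or 3 or heterozygous replicate 1 or 2 (0.33 to 0.49). It lies in the group of genes from 49.1 to 112 intensity units, whose median log2 fold change was 0.16. Nfatc1, the transcription factor that commits osteoclasts and is also active in endothelium, fell by 0.23 (limma adjusted p = 0.0399) and lost its call in all 6 refits (−0.26 to −0.21). Among the genes named from these lists, the Y-linked covariate also ended the calls of Tnfsf18, Tnfrsf11b, Tnfrsf17, Ngfr, Tradd, Nfkbiz, Nfkbib, Pdpn, Itga4 and Nfatc1, and quantile normalization those of Tnfrsf17, Nfkbiz, Nfkbib and Nfatc1. Taking the 7 lists together, 13 of 99 genes were called higher and 10 lower, against 10.4% and 6.56% of all genes, and 44 had groups that did not overlap, against 38.3%.

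Markers of other cell types moved in the same samples, in which 17.0% of all genes were called. Of 10 endothelium markers 9 fell, with summed intensities per array of 5447 to 5792 in homozygous and 7806 to 8196 in heterozygous spleens, and of 8 erythroid markers 6 fell (9764 to 10604 in homozygous, 12568 to 13517 in heterozygous). Higher calls were made for 5 of 8 enteric neuron and glia markers (1419 to 1498 in homozygous, 959 to 1041 in heterozygous), 3 of 10 epithelium markers (3621 to 3976 in homozygous, 2768 to 3535 in heterozygous) and 2 of 8 pancreas markers (2752 to 6069.9 in homozygous, 1267 to 1819 in heterozygous). Of 10 mesenchyme markers 3 rose (Prrx1, Dcn and Col1a1) and 2 fell (Pdgfrb and Tcf21), with 8 estimates above 0 (21772 to 23737 in homozygous, 20194 to 20970.2 in heterozygous), and of 7 mesothelium markers 1 rose and 1 fell (6963 to 7062 in homozygous, 6961 to 7340.3 in heterozygous). The 10 macrophage markers were not called (2522 to 2658 in homozygous, 2480.2 to 2571 in heterozygous). Of 4 T cell markers 1 rose (207 to 237 in homozygous, 184 to 193 in heterozygous), and of 4 B cell markers 1 fell (179 to 186 in homozygous, 182 to 187 in heterozygous). The T cell markers were dim, with means of 26.1 (Cd3d) to 64.0 (Cd3e) in heterozygous spleens. They lie in the 2 dimmest of the 5 groups of genes by level, whose median log2 fold changes were 0.12 and 0.16. The part of that trend in the T cell sums was not tested. The B cell markers Cd79a and Ms4a1 stood close to the filter floor of 15 intensity units. Their means were 18.0 and 17.0 in homozygous and 21.1 and 19.7 in heterozygous spleens. A marker was tested only if it passed that filter, so being tested does not show that its cell type was present. The part of these cell types in the changes of Tnfsf11, Ltbr and Map3k14 was not tested.

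**Figure D5:**
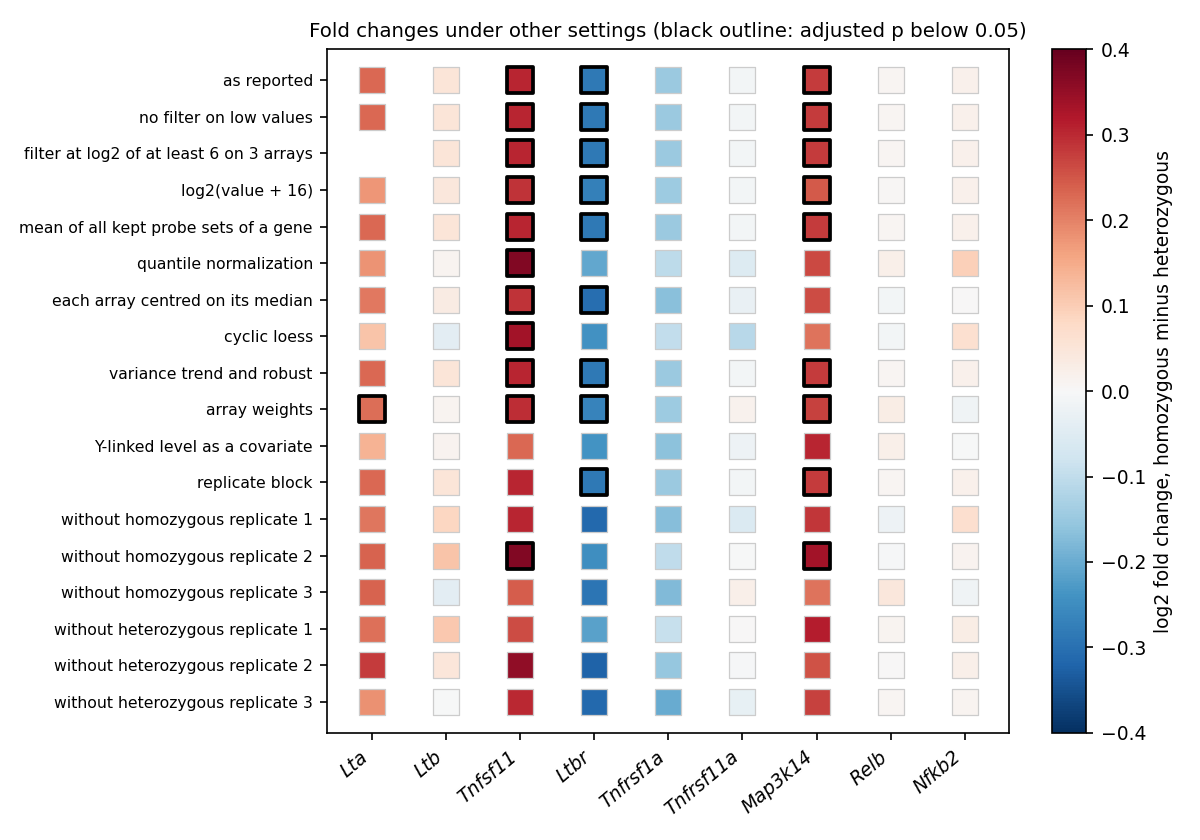
Log2 fold change of the 9 genes (colour, homozygous minus heterozygous) as reported and under each other setting, 1 row per setting; a black outline marks an adjusted p below 0.05, and Lta has no value where the stricter filter removed it. Tnfsf11, Ltbr and Map3k14 keep their direction in every row, and their outlines are missing in most rows that leave out 1 array.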

How the data were processed

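Total RNA of 6 samples of E13.5 mouse spleen, 3 per group, was measured on Affymetrix arrays. The deposited table holds intensities for 35512 probe sets, which come from GCRMA, a method the submitters' processing notes name (background correction, normalization between arrays, 1 value per probe set). The intensities are on a linear scale, read from their range. For the GCRMA version and the genome build, nothing is given in the sources used here.

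A table of the platform's annotation gave 1 symbol to 21789 probe sets, several to 1621 and none to 12102; only the first were used. Of their Entrez identifiers 21698 were found in a RefSeq table of GRCm38.p6. Values entered as log2(intensity + 1). Probe sets with a log2 value of at least 4 on at least 3 arrays were kept, and the brightest per gene gave 18710 genes. The comparison, homozygous minus heterozygous, was tested by limma (version 3.58.1, lmFit and eBayes; R 4.3.3) on all 6 arrays without covariate, with two-sided tests and Benjamini-Hochberg adjustment over all genes. The code was tested on simulated data. Figures and promoter searches used Python 3.11.15.

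The 9 genes, the lists and the rules were chosen with earlier results of these data known. The text names the 9 genes, Tlx1, up to 5 called genes per pathway list (largest change first), the neighbours Tnf and Scnn1a, and the 4 nearest profiles; others are said to be picked with their values in view. Alternatives were the filter, the pseudocount, the mean over probe sets, 3 normalizations, variance model, array weights, a Y-linked covariate (mean log2 of the Y-linked genes), the replicate block and each array left out. Each of the 9 genes has 1 probe set, so no other probe set could be tried. The number of arrays limits the precision.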

Additional observations from a re-analysis of the deposited data

How the results depend on the processing

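Among all genes 3178 were called, against 1647 with a Y-linked covariate and 1198 to 3563 in refits without 1 array. Array weights gave the highest counts, 4569 of all genes, 4 of the 9 pathway genes and 28 of the other pathway genes. Of the 9 pathway genes 3 were called. The count was 1 after quantile normalization and 1 after cyclic loess (Tnfsf11 in both), 0 with the Y-linked covariate (limma; 1 at an unadjusted p below 0.05), and 0 to 2 without 1 array, with 0 in 5 of the 6 such refits (limma; 4 or 5 at an unadjusted p below 0.05). Fewer samples enter those refits. The Y-linked mean was 8.07 to 8.22 on the log2 scale on homozygous arrays and 8.08 to 8.99 on heterozygous ones. Of the other pathway genes 23 were called, 14 with the Y-linked covariate and 10 to 23 without 1 array. The cause of these shifts was not tested.

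Tnfsf11, Ltbr, Map3k14, Lta and Tnfrsf1a kept their direction under all alternatives. Genes with fold changes near 0 turned sign. Ltb was at −0.043 after cyclic loess and ranged from −0.043 to 0.11 without 1 array. Tnfrsf11a was at 0.018 with array weights and at −0.059 to 0.025 without 1 array. Relb was at −0.012 after median centring and −0.011 after cyclic loess, and at −0.022 to 0.046 without 1 array. Nfkb2 was at −0.017 with array weights, −0.0010 with the Y-linked covariate and −0.018 to 0.066 without 1 array. None of these 4 was called under any alternative. The stricter filter removed Lta, Tnfsf18, Tnfrsf17, Cd4, Treml4 and Theg, which then have no value. With the replicate number as a block (replicate block) 3163 genes were called, 2 of the 9 pathway genes (Ltbr and Map3k14) and 21 of the other pathway genes. Same-numbered arrays deviated from their group means with correlations of −0.01, 0.04 and −0.11 across genes, and not every array correlated best with its own number, so the numbers were not taken to pair the samples. The number of arrays limits what a change of this size can show.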
